A study of Mus musculus with 6 samples.

Results

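The 481 probes described here carry the consecutive design numbers 050452 to 050932 of a mouse long noncoding RNA array, which holds 59709 non-control probes in all. They were chosen by that number and not by their values, though the limits of the block are set by 2 probes that had been listed for their differences between these samples. The deposited files give these probes only as numbers, so no member can be named as a transcript. Their identity is inferred from the probes at either edge, whose group means match entries of the transcript list published with the arrays. The probe just before the block, 050451, matched uc009bpe.1, listed there as a T cell receptor beta chain transcript, and the probe just after it, 050933, matched uc009iqv.1, listed as Art1. Another entry of the same kind, uc007zya.1 at Son, matched probe 048326, and the 3 design numbers run in the order of the 3 identifiers. The block should therefore hold transcripts of the UCSC Known Genes set that the array design took up as noncoding, a reading that rests on this order and on no annotation of the members themselves. The block probes lie scattered over the array, in 277 of its 384 rows, so that consecutive design numbers are not neighbouring spots.

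UCSC Known Genes is a catalogue of transcript models built from messenger RNA, protein and expressed sequence evidence. It holds protein-coding transcripts together with transcripts that lack a long open reading frame, and long noncoding RNA arrays draw on the latter. Noncoding transcripts of this kind can be antisense to a gene, lie within an intron, lie between genes or be a variant of a coding gene that is not translated. The edge markers belong to different kinds of locus. The T cell receptor beta chain is one of the chains of the antigen receptor of T lymphocytes, and Art1 encodes a mono-ADP-ribosyltransferase of striated muscle. The published list gives both edge transcripts as long noncoding RNAs, the former intergenic and the latter overlapping Chrna10 in antisense. Their probes are therefore not taken as readings of the coding messenger RNAs.

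Ischemic preconditioning (IPC) is a series of brief coronary occlusions that makes the heart more resistant to a later, longer one. Cardiac biopsies came from 4 mice recorded as strain C56BL7, female and 12 months old, with no engineered allele given. The methods of the study differ from these records, in that they give mice of both sexes and longer occlusion cycles, and the records are followed here. Mice 004 and 008 underwent IPC, with 4 rounds of coronary occlusion for 4 min, each released for 4 min, and a last reperfusion of 30 min, and each gave a biopsy of the area at risk (IPC AAR), the myocardium downstream of the occluded left coronary artery, and a biopsy of the remote myocardium (IPC RM). Mice 012 and 013 underwent a sham procedure and each gave an AAR biopsy (sham AAR), so every group had 2 arrays. According to the methods the RM biopsy was taken from the right ventricle, so IPC and ventricle cannot be told apart between IPC AAR and IPC RM. The IPC arrays shared a slide and the sham arrays shared another, so the effect of the slide cannot be told apart from that of the sham procedure. Fewer cells that hold a transcript and less of it per cell cannot be told apart in such biopsies.

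Facts of the whole array set that touch the block are few. None of the 44 cell type markers that were looked up is named in the files, so the labelled tissue could not be checked against them, whereas all 6 housekeeping genes are named. Their log2 differences between IPC AAR and IPC RM ran from -0.58 for Tbp to 0.54 for Rpl13a after quantile normalization, and none was called. Scaling each array to its 75th percentile instead moved Gapdh from 0.13 to 1.11 and the median of all probes tested from 0.20 to 0.33, so every direction below is relative to the quantile-normalized distribution. The sham arrays differed more from each other than the arrays of either IPC group, also within the block. Over the 272 block probes well above background on all 6 arrays, the median absolute log2 difference between the arrays of a group was 0.10 in IPC AAR, 0.12 in IPC RM and 0.31 in sham AAR.

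Most of the block gave signal in these hearts. Well above background is a mark that the scanner software sets for each spot from the local background and its error. In IPC AAR, 326 block probes (67.8%) carried it in mouse 004 and 345 (71.7%) in mouse 008. In IPC RM the numbers were 378 (78.6%) and 391 (81.3%). In sham AAR they were 286 (59.5%) in mouse 012 and 341 (70.9%) in mouse 013. The block was thus detected most often on the IPC RM arrays and least often on the array of sham mouse 012. Over all probes the IPC RM arrays were also highest and the array of sham mouse 012 lowest, with shares of 68% and 70.6% in IPC AAR, 78.4% and 80.5% in IPC RM, and 61% and 72.2% in sham AAR. With 2 arrays per group an exact two-sided permutation test cannot go below p = 0.333, so no test of these counts was made.

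**Figure D1:**
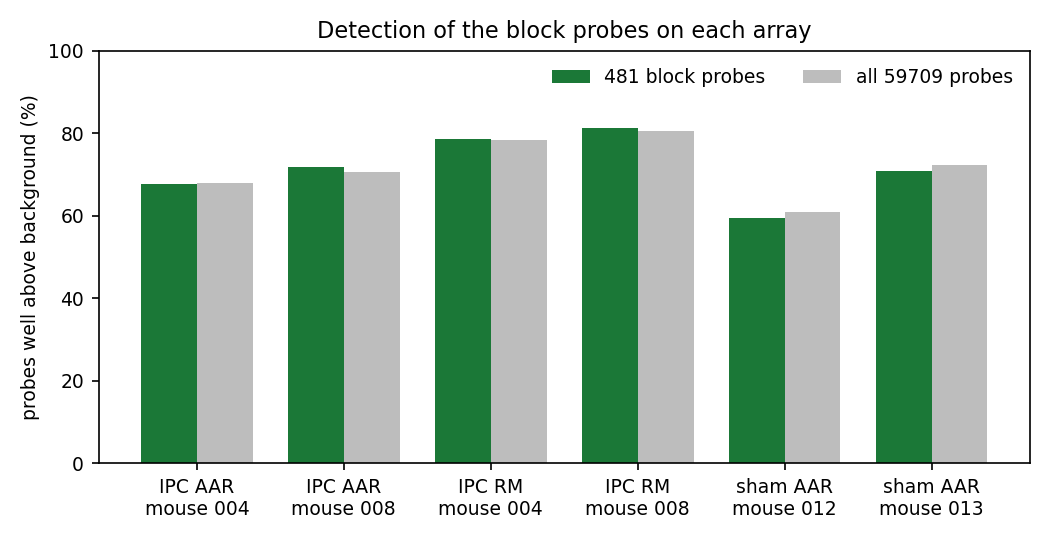
Share of probes marked well above background on each of the 6 arrays, in percent, for the 481 block probes (green bars) and for all 59709 non-control probes (grey bars). The block runs from 59.5% on the array of sham mouse 012 to 81.3% on the IPC RM array of mouse 008, close to the grey bar beside it on every array.

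The mark was present on every one of the 6 arrays for 272 block probes (56.5%) and on none for 62 (12.9%), against 57.9% and 15.2% of all probes. The groups differed in one direction more than in the other. There were 32 block probes (6.65%) above background on both IPC RM arrays and on neither IPC AAR array, and 1 (0.208%) with the reverse pattern. Over all probes the shares were 6.77% and 0.162%. Between IPC AAR and sham AAR, 16 block probes (3.33%) were above background on both IPC AAR arrays and on neither sham array, and 5 (1.04%) the reverse, beside 1.78% and 0.921% of all probes. Whether the higher share of the first kind in the block exceeds the spread between animals was not tested.

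The normalized log2 intensity of the block ran from 1.34 to 18.61, and its median per array from 5.35 on the array of sham mouse 013 to 5.76 on the IPC AAR array of mouse 008. Of the 481 probes, 159 had a mean over the 6 arrays below 4, 107 from 4 to 6, 106 from 6 to 8, 53 from 8 to 10, 30 from 10 to 12, 16 from 12 to 14 and 9 of 14 or above. No block spot was saturated. The 5 brightest block probes were near constant over the groups. Probe 050922 read 18.25 and 18.27 in IPC AAR, 18.13 and 18.07 in IPC RM, and 18.61 and 18.22 in sham AAR. Probe 050909 read 18.52 and 18.29, then 18.13 and 18.09, then 18.25 and 18.13 in the same order. Probe 050811 read 18.29 and 18.33, then 18.27 and 18.01, then 18.21 and 18.16. In all 3 both IPC AAR arrays lay above both IPC RM arrays, by far less than the called size, and the sham arrays overlapped one or both groups. The remaining 2 were 050647, at 15.22 and 15.13 in IPC AAR, 15.45 and 15.52 in IPC RM and 15.32 and 15.26 in sham AAR, and 050883, at 15.09 and 15.08, 15.23 and 15.22, and 15.13 and 14.89. Neither passed an adjusted p of 0.05 in any of the 3 comparisons (limma), and neither did the 3 brighter ones.

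The comparison of IPC AAR with IPC RM asks which transcripts differ between preconditioned and remote tissue of the same hearts. A probe entered the test if either group had it well above background on each of its arrays, and was called where limma's adjusted p over all tested probes was below 0.05 and the fold change above 2. Of the 373 block probes tested, 58 were called, or 15.5%, where 20.6% of all 46232 probes tested were. In IPC AAR 30 were higher (8.04%, background 7.29%) and 28 were lower (7.51%, background 13.3%). Under this filter the block held calls in both directions in nearly equal number. Higher calls were near their background share, and lower calls had a smaller share than on the array as a whole. The near balance depended on the filter, which also admits probes too dim to be marked in the other group. Where the mark was required on each of the 4 arrays, 30 of 310 block probes were called higher (9.68%) and 14 lower (4.52%). Over all probes tested that way the shares were 8.49% and 10.1%. With the first filter again, 63 of 390 tested probes in the 481 design numbers before the block were called (16.2%), 32 higher and 31 lower (7.95%). In the 481 after it 75 of 371 were called (20.2%), 31 higher and 44 lower (11.9%). The stretch before was thus like the block and the stretch after like the whole array, and these differences were not tested. Under 75th percentile scaling 47 of 76 called block probes were higher (61.8%), where quantile normalization gave 30 of 58. For all probes that split went from 35.5% to 50.5%. Without the IPC RM array of mouse 004 the count of called block probes was 29 (7.77%, over all probes 10.6%), and without that of mouse 008 it was 28 (7.51%, over all probes 11.4%).

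Many block probes differed by less than the called size. An unadjusted p below 0.05 was reached by 210 block probes (56.3%, background 58%), and an adjusted p below 0.05 at any fold by 182 (48.8%, background 49.2%). The median log2 difference over the 373 tested was 0.31, against 0.20 over all probes tested, with quartiles of -0.19 and 0.64. In the stretch before the block the median was 0.30, close to that of the block, and in the stretch after it 0.23. Higher and lower calls differed in how well they were measured. Among the 30 higher probes 29 carried the background mark on each of the 4 arrays, and the remaining one on no IPC RM array. Of the 28 lower probes 14 were above background on all 4, 12 on no IPC AAR array and 2 on a single IPC AAR array. The whole array leaned the same way. Requiring the mark on each of the 4 arrays took higher calls over all probes from 3370 to 3294 and lower calls from 6135 to 3940. Among the called probes above background on all 4 arrays the median log2 difference was 1.43 for the 29 higher and -1.96 for the 14 lower ones.

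**Figure D2:**
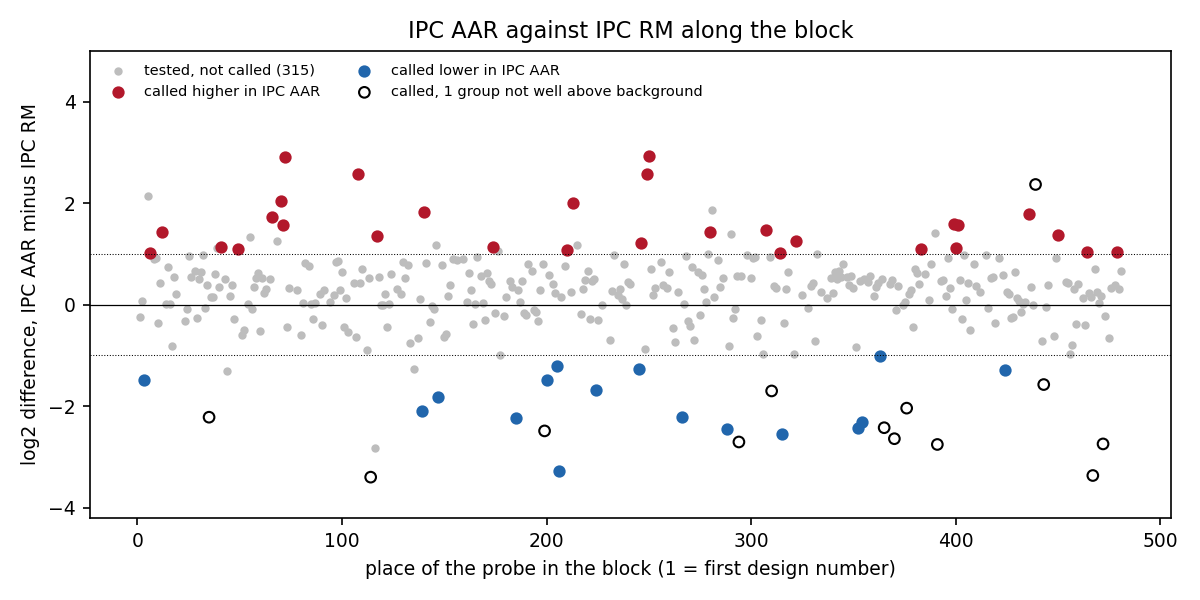
Log2 difference between IPC AAR and IPC RM for the 373 tested block probes, by their place in the block. Red and blue points are probes called higher and lower in IPC AAR, open circles are called probes with a group not well above background on either array, grey points were not called, and dotted lines mark a 2-fold difference. Called probes of both directions occur along the whole block, and 12 of the 13 open circles lie below 0.

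The largest difference in favour of IPC AAR was at probe 050701, which read 9.42 and 9.49 in IPC AAR, 6.54 and 6.49 in IPC RM, and 8.21 and 7.88 in sham AAR. It was 7.65-fold higher in IPC AAR than in IPC RM (log2 difference 2.94, SE 0.08, limma adjusted p = 0.000862). Its neighbour in number, 050700, read 8.04 and 8.22, then 5.61 and 5.51, then 7.54 and 7.37, a 5.96-fold difference (log2 2.57, SE 0.11, limma adjusted p = 0.00142). In both probes the groups did not overlap and the sham arrays lay between the others.

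Probe 050523 read 10.72 and 10.66 in IPC AAR, 7.79 and 7.78 in IPC RM, and 9.38 and 9.54 in sham AAR, a 7.48-fold difference between the IPC groups (log2 2.90, SE 0.07, limma adjusted p = 0.000833). Probe 050521 read 6.57 and 6.80, then 4.59 and 4.69, then 6.71 and 6.68, which is 4.13-fold (log2 2.05, SE 0.12, limma adjusted p = 0.00246). In 050521 the sham arrays fell within the range of IPC AAR, so that IPC RM alone stood apart, whereas in 050523 they lay between. The probe between these in number, 050522, was 2.98-fold higher (log2 1.57, SE 0.22, limma adjusted p = 0.0133), with 5.33 and 5.51 against 3.58 and 4.11 and with sham arrays at 4.54 and 4.36.

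Probe 050559 read 10.02 and 9.93 in IPC AAR, 7.37 and 7.42 in IPC RM and 8.69 and 8.36 in sham AAR, a 5.97-fold difference. Probe 050664 read 10.85 and 11.01, then 8.97 and 8.89, then 9.77 and 9.21, which is 4.01-fold. In both, as in 050517 (9.63 and 9.61, then 8.01 and 7.80, then 8.78 and 8.14, 3.30-fold), the sham arrays lay below IPC AAR and above IPC RM. Probe 050591 read 7.46 and 7.10, then 5.43 and 5.48, then 6.46 and 7.17, so that a sham array overlapped IPC AAR. Probe 050887 was dim, at 5.49 and 4.95, then 3.68 and 3.21, then 4.22 and 3.59, with neither sham array well above background. Probe 050850 read 6.95 and 6.91, then 5.42 and 5.28, then 5.15 and 5.04, and here both sham arrays lay below both IPC RM arrays. These last 3 were 3.55-fold, 3.44-fold and 2.99-fold higher in IPC AAR than in IPC RM. Among the 10 probes with the largest differences in this direction, 050521 and 050850 lost the call with normexp background correction, 050591 without either IPC RM array, and 050887 under both of these and under the methods' t-test.

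Of the probes lower in IPC AAR and above background on all 4 arrays, 050657 differed most. It read 5.76 and 6.20 in IPC AAR, 9.30 and 9.20 in IPC RM, and 8.28 and 8.92 in sham AAR, and was 9.64-fold lower in IPC AAR than in IPC RM (log2 -3.27, SE 0.19, limma adjusted p = 0.00244). Both sham arrays lay on the side of IPC RM. Probe 050656, next to it in number, differed 2.32-fold (6.59 and 6.87 against 7.96 and 7.92, limma adjusted p = 0.00735), but its sham arrays were far apart, at 6.74 and 8.35.

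Probe 050766 read 5.55 and 6.05 in IPC AAR, 8.41 and 8.27 in IPC RM, and 7.29 and 8.38 in sham AAR, a 5.83-fold difference between the IPC groups. Probe 050739 read 4.26 and 4.24, then 6.79 and 6.60, then 5.92 and 7.21, which is 5.45-fold. Probe 050717 read 5.57 and 5.76, then 8.09 and 7.67, then 7.56 and 7.93, which is 4.65-fold. All 3 had the sham arrays above both IPC AAR arrays, with the sham spread of 050766 and 050739 over 1 on the log2 scale. Probe 050805 read 8.46 and 8.43, then 10.79 and 10.72, then 10.15 and 10.77, which is 4.96-fold. Probe 050598 read 9.41 and 9.49, then 11.26 and 11.29, then 10.83 and 10.98, which is 3.54-fold. In these brighter probes too, the sham arrays were closer to IPC RM than to IPC AAR.

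The other lower probes had less even sham values. Probe 050803 read 10.35 and 10.28 in IPC AAR, 12.65 and 12.82 in IPC RM, and 10.55 and 11.93 in sham AAR, a 5.37-fold difference between the IPC groups. Probe 050590 read 4.25 and 4.59, then 6.51 and 6.52, then 4.87 and 6.69, which is 4.29-fold. Probe 050454 read 9.52 and 9.48, then 10.99 and 10.99, then 9.89 and 11.83, which is 2.81-fold. In each of these one sham array was near IPC AAR and the other near or above IPC RM, except that for 050803 the higher sham array stayed below IPC RM. Probe 050651 read 10.64 and 10.72, then 12.17 and 12.17, then 11.25 and 11.90, also 2.81-fold, with both sham arrays between the IPC groups. Among the 10 lower probes with the largest differences, 050766 and 050590 lost the call without either IPC RM array, 050590 also with normexp, and 050590 and 050454 in a single fit of all 6 arrays.

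**Figure D3:**
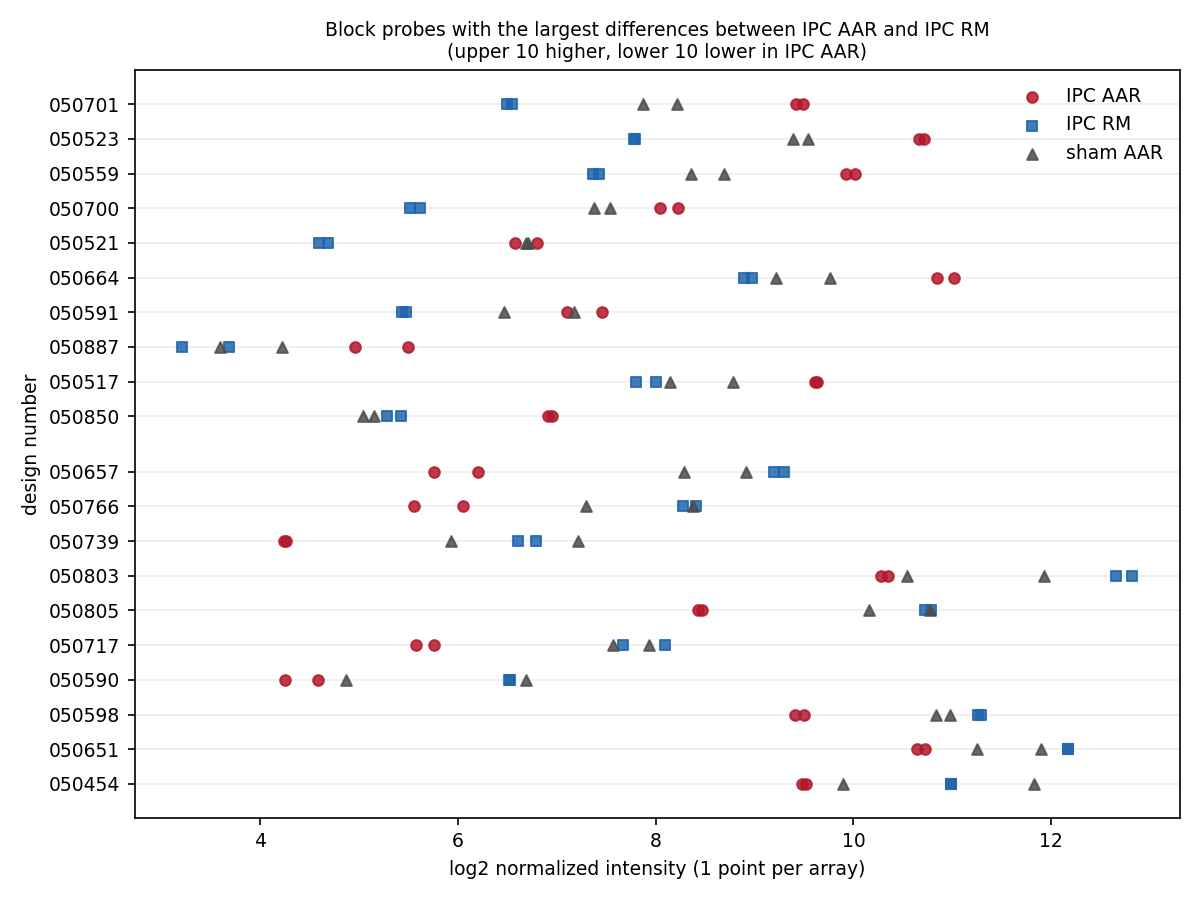
Normalized log2 intensity on each of the 6 arrays (1 point per array) for the 10 block probes with the largest differences in each direction between IPC AAR (red circles) and IPC RM (blue squares), with sham AAR as grey triangles. Red and blue points do not overlap in any of these probes, which follows from their choice as called, and the sham points lie between them in some rows and beside or beyond one of them in the others.

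Where a group was dim on both of its arrays, only a bound on the fold can be given. Such a probe entered the test through its brighter group alone. The p beside a bound is limma's for the fitted difference, which uses the dim readings, and not for the bound. The bound sets the mean of the brighter group against, on each dim array, the higher of the probe's own signal and the lowest signal of any probe well above background there. Every bound given here and below holds for these quantile-normalized intensities only. It is no detection limit of the probe, and another background correction can give a smaller fold. Probe 050918 read 6.65 and 6.51 in IPC RM and 3.83 and 2.60 in IPC AAR, and was at least 5.98-fold higher in IPC RM (limma adjusted p = 0.0132). Probe 050842 read 6.33 and 5.89 against 3.87 and 2.83, at least 4.30-fold (limma adjusted p = 0.0166), and probe 050827 read 5.20 and 4.99 against 3.33 and 2.79, at least 2.14-fold (limma adjusted p = 0.00827). These were the brightest of the 12 lower probes dim in IPC AAR, and the only 3 whose bound passed 2-fold. Another 6 had bounds of 1.05-fold to 1.76-fold, and for the last 3 no bound above 1 could be set. For the sham mice, 050918 read 5.16 and 6.44, 050842 read 1.39 and 5.56, and 050827 read 4.43 and 4.54. The only probe dim in IPC RM was 050890, at 4.39 and 4.66 in IPC AAR against 2.62 and 1.69, at least 3.18-fold higher in IPC AAR (limma adjusted p = 0.0167). With normexp the log2 differences between the IPC groups were -1.14 for 050918, -0.90 for 050842, -0.51 for 050827 and 0.43 for 050890. Each was smaller in size than its bound. There 050842, 050827 and 050890 lost the call, and 050842 also lost it in a single fit of all 6 arrays. All 4, 050918 among them, lost the call under the methods' t-test. Leaving out the IPC RM array of mouse 008 also ended it for each of them, and leaving out that of mouse 004 for each but 050890.

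The difference was also formed within each mouse, over the 310 block probes well above background on all 4 IPC arrays. IPC AAR and IPC RM differed in the same direction in both mice for 260 of them (83.9%, against 86.9% of all such probes). A difference of over 2-fold the same way in both mice, with no test, was seen for 37 (11.9%, where 15.4% of all such probes did), 24 of them higher and 13 lower in IPC AAR. A further 42 (13.5%, over all such probes 12.6%) passed 2-fold in a single mouse. The median absolute difference between the mice was 0.21 on the log2 scale.

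**Figure D4:**
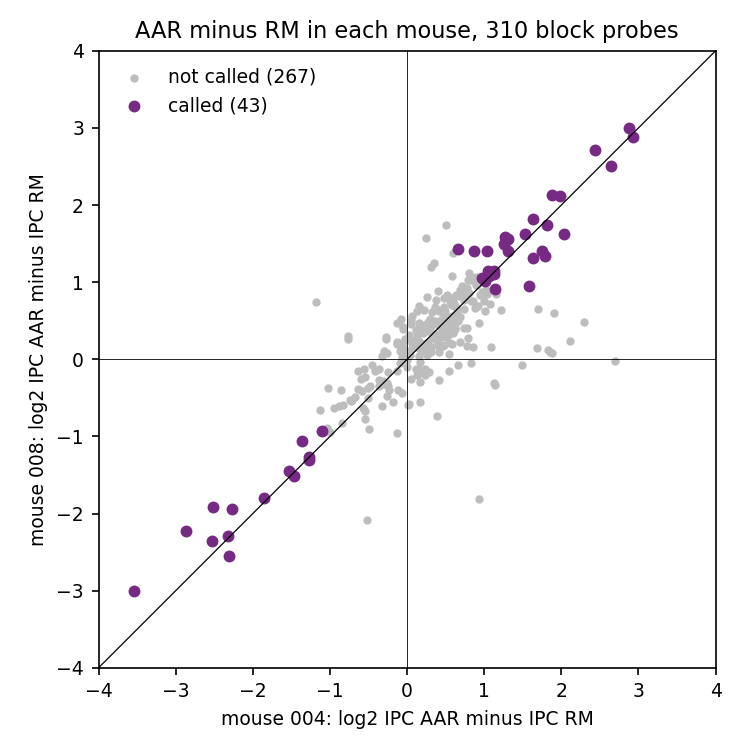
Log2 difference between IPC AAR and IPC RM in mouse 004 (horizontal) and in mouse 008 (vertical) for the 310 block probes well above background on all 4 IPC arrays, with the called ones in purple and the line of equal difference in black. The points follow the line, and a group of grey points with a positive difference in mouse 004 lies near 0 in mouse 008.

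IPC AAR and sham AAR compare the same region with and without preconditioning. Of 320 block probes tested, 26 were called, or 8.12%, where 8.56% of all 40161 probes tested were. In IPC AAR 18 were higher (5.62%, background 2.78%) and 8 were lower (2.5%, background 5.78%), so that higher calls made up 69.2% of the calls in the block and 32.5% of those over all probes. Under 75th percentile scaling these shares were 68.4% (26 of 38) and 44.2%. Of the 18 higher probes, 5 were marked on neither sham array and so entered the test through IPC AAR alone. Where the mark was required on each of the 4 arrays, 12 of 272 block probes were called higher (4.41%) and 5 lower (1.84%). Over all probes tested that way the shares were 2.95% and 6.07%. With the first filter again, 15 of 331 tested probes in the stretch before the block were higher (4.53%) and 9 lower (2.72%). In the stretch after it 11 of 323 were higher (3.41%) and 13 lower (4.02%). The stretch before the block thus also had more higher than lower calls. An unadjusted p below 0.05 was reached by 113 block probes (35.3%, background 35.8%), an adjusted p below 0.05 at any fold by 28 (8.75%, background 9.35%), and the median log2 difference was 0.31, against 0.23 over all probes tested. The stretches before and after the block had medians of 0.31 and 0.23. The counts of calls come from few arrays, and the part of the wide sham spread in them was not tested. Without the IPC AAR array of mouse 004 or that of mouse 008 the count was 2 in either case (0.625%), where 0.645% and 1.31% of all probes were called. Without that of sham mouse 012 it was 64 (19.9%, over all probes 22.6%), and without that of sham mouse 013 it was 15 (4.69%, over all probes 5.24%), so that the counts moved over the whole array. The methods' t-test called 0 block probes and 2 of all probes, although 76 block probes had an unadjusted p under 0.05.

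Among those above background on all 4 arrays compared, the higher probes with the largest fold changes were 050850, 050559, 050664, 050701 and 050463. Against sham AAR, 050850 was 3.57-fold higher in IPC AAR (log2 1.83, SE 0.15, limma adjusted p = 0.0194), 050559 2.73-fold (log2 1.45, SE 0.19, limma adjusted p = 0.0318) and 050701 2.66-fold (log2 1.41, SE 0.19, limma adjusted p = 0.0334), on the array values given above. Probe 050664 was 2.72-fold higher and lay at the edge of the threshold (limma adjusted p = 0.0496). Probe 050463 read 9.96 and 10.10 in IPC AAR, 8.66 and 8.54 in IPC RM, and 8.77 and 8.52 in sham AAR, so that IPC RM and sham AAR overlapped and IPC AAR stood 2.62-fold above sham AAR (limma adjusted p = 0.0307).

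Among the lower probes, 050657 was 6.15-fold lower in IPC AAR than in sham AAR (log2 -2.62, SE 0.31, limma adjusted p = 0.0285), 050717 4.23-fold (log2 -2.08, SE 0.20, limma adjusted p = 0.0231) and 050805 4.05-fold (log2 -2.02, SE 0.26, limma adjusted p = 0.0325). Probe 050598 was 2.74-fold lower (limma adjusted p = 0.0251). Probe 050696 read 6.28 and 6.24 in IPC AAR, 7.54 and 7.50 in IPC RM, and 7.62 and 7.64 in sham AAR, with IPC RM and sham AAR close together, and was 2.59-fold lower in IPC AAR than in sham AAR (limma adjusted p = 0.0245). The number next to it, 050697, went the other way, at 6.12 and 6.24 in IPC AAR, 5.08 and 4.83 in IPC RM, and 4.40 and 4.44 in sham AAR. It was 3.38-fold higher in IPC AAR than in sham AAR by the fit (limma adjusted p = 0.0198), but was not well above background on every sham array. Of these 10 named probes, each lost the call against sham AAR when either IPC AAR array was left out and under the methods' t-test.

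Detection set bounds here too, and each p again belongs to the fitted difference and not to the bound. Probe 050456 read 5.34 and 6.31 in IPC AAR and 1.40 and 1.38 in sham AAR, at least 3.41-fold higher in IPC AAR (limma adjusted p = 0.020). Its IPC RM arrays read 5.34 and 2.03, far apart, so this probe was not called between the IPC groups. Probe 050571 read 5.05 and 5.31 in IPC AAR, 4.94 and 5.43 in IPC RM, and 3.90 and 3.50 in sham AAR, at least 2.19-fold higher in IPC AAR than in sham AAR (limma adjusted p = 0.0397), with both IPC groups at one level. Probe 050650 was dim in IPC AAR, at 2.82 and 1.40, and read 5.28 and 5.54 in sham AAR, at least 2.65-fold higher there (limma adjusted p = 0.0447). Probe 050745 read 1.41 and 1.40 in IPC AAR and 5.38 and 4.18 in sham AAR, at least 1.71-fold higher in sham AAR (limma adjusted p = 0.0339). All 4 lost the call under the methods' t-test, with normexp and with every probe of the array tested. With normexp the log2 differences between IPC AAR and sham AAR were 0.94 for 050456, 0.31 for 050571, -0.54 for 050650 and -0.43 for 050745. Each was smaller in size than its bound.

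Some probes were called against both other groups in the same direction. The comparisons share the IPC AAR arrays, so their values are given side by side and are not independent. Ranked by the smaller of the 2 fitted folds, the leading 5 were 050745, 050657, 050650, 050890 and 050717. Only 050657 and 050717 of these were above background on all 6 arrays, and the rest have bounds only, so that no order among the 5 is given. Probe 050657 differed by -3.27 from IPC RM and by -2.62 from sham AAR on the log2 scale, and 050717 by -2.22 and -2.08. The other three were dim in a group. Probe 050745 read 4.16 and 4.06 in IPC RM, which puts IPC RM at least 1.08-fold above IPC AAR, and 050650 read 4.68 and 4.51 there, at least 1.51-fold. Probe 050890 was at least 1.39-fold higher in IPC AAR than in sham AAR, where it read 1.40 and 1.88. With normexp 050745, 050650 and 050890 lost the call in both comparisons.

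The sham arrays place the called probes further. Among the block probes called between the IPC groups and above background on all 6 arrays, 26 were higher and 13 lower in IPC AAR. Of the 26, both sham arrays lay below both IPC AAR arrays in 21 (80.8%), beside 86.4% over all such probes. Of the 13, both sham arrays lay above both IPC AAR arrays in 12 (92.3%), beside 92%. Both sham arrays lay between the IPC groups in 15 of the 26 and in 5 of the 13 (38.5%), where over all such probes 59.9% and 51.2% did so. Higher probes in the block were thus near the whole array in both shares, and lower probes in the first share only, and none of these differences was tested.

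IPC RM and sham AAR differ in region, treatment and slide together. No block probe of the 370 tested was called by limma, where 0% of all 46061 probes tested were, and 53 had an unadjusted p below 0.05 (14.3%, background 16.4%). The methods' t-test called 0 as well, with 47 at an unadjusted p below 0.05, and a single fit of all 6 arrays called 4 (1.08%, over all probes 0.462%). The median log2 difference was 0.02 and the smallest adjusted p was 0.159. The smallest unadjusted p in the block belonged to 050521 (0.000198), followed by 050700 (0.000360), both of which were lower in IPC RM than in sham AAR, by log2 differences of -2.06 and -1.90, and these were named after their values were seen. Without the array of sham mouse 012 the count was 32 (8.63%, over all probes 6.74%) and without that of sham mouse 013 it was 52 (14.1%, over all probes 14.2%).

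The spread between the sham mice was itself large at some probes. Probe 050631 read 8.29 in sham mouse 012 and 5.96 in sham mouse 013, while its IPC arrays read 6.67, 6.56, 6.41 and 6.51. Probe 050454 read 9.89 and 11.83 in the sham mice and 050617 read 5.33 and 6.98, with IPC values of 7.92 and 8.01 in the AAR and 7.02 and 7.04 in the RM. Within the block 17 of 272 probes (6.25%) differed by over 2-fold between the sham arrays, whereas 9 (3.31%) did between the IPC AAR arrays and 1 (0.368%) between the IPC RM arrays. Over all probes above background on every array the shares were 7.64%, 2.57% and 0.523%.

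Along the design numbers calls of both directions occurred in every section. In the first of 5 nearly equal sections, 050452 to 050547, 8 of 73 tested probes were higher and 2 lower in IPC AAR than in IPC RM. In the following section 4 of 76 were higher and 4 lower, and in the middle one 6 and 8 of 74. The section from 050740 to 050835 had 4 and 9 of 73, and the last had 8 and 5 of 77. Over all probes tested 7.29% were higher and 13.3% lower. The lower counts include probes dim in IPC AAR. The section medians of the log2 difference stayed between 0.24 and 0.37, and no test of the sections was made.

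Some consecutive numbers were called together. There were 10 pairs of consecutive block numbers in which both were called, 7 of them in the same direction. Over all design-numbered probes there were 1826 such pairs, 1161 in the same direction. Neither count is set against the number of all consecutive pairs, so neither shows how often neighbours share a call. Runs of 3 called higher in IPC AAR were 050521 to 050523, described above, and 050850 to 050852. Within these runs and the pairs 050650 to 050651, 050656 to 050657 and 050700 to 050701, calls were lost with normexp by 050521, 050522, 050650, 050656, 050850 and 050851. They were lost without the IPC RM array of mouse 004 by 050522 and 050851, and without either IPC RM array by 050650, 050656 and 050852. The methods' t-test ended those of 050522 and 050650, the fit of all 6 arrays that of 050656, and testing every probe that of 050650. In the latter run 050851 read 7.03 and 7.09 in IPC AAR, 5.91 and 5.98 in IPC RM, and 6.64 and 6.19 in sham AAR, and 050852 read 7.79 and 7.47, then 6.01 and 6.13, then 7.31 and 6.89. Here the sham arrays differed between members of a run, since they lay below IPC RM in 050850 and between the IPC groups in the other two. Consecutive numbers called in opposite directions were 050590 and 050591, 050696 and 050697, and 050765 and 050766, of which 050765 was 2.02-fold higher and 050766 5.83-fold lower in IPC AAR than in IPC RM. Across the 151 consecutive pairs of block probes in which both were well above background on every array, the Pearson correlation of the log2 difference was 0.18, and across 19506 such pairs of all design-numbered probes it was 0.05. These are correlations across probes, which share arrays and are not independent replicates.

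The edge probes, which are no members, gave larger upward differences than any block probe. Probe 050451, matched to the T cell receptor beta chain transcript, read 9.40 and 9.54 in IPC AAR, 6.08 and 5.81 in IPC RM, and 8.04 and 7.45 in sham AAR, a log2 difference of 3.52 between the IPC groups (SE 0.13, limma adjusted p = 0.00129). Probe 050933, matched to Art1, read 10.81 and 10.86, then 7.55 and 7.55, then 8.80 and 8.72, a difference of 3.29 (SE 0.07, limma adjusted p = 0.000761). Both had been taken into the published list for such differences, whereas the largest upward difference within the block was 2.94.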

How the data were processed

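Cy3-labelled RNA of 6 cardiac biopsies was hybridised to 1-colour Agilent long noncoding RNA arrays designed on the mm9 build. The deposited scanner files hold processed intensities, which per the file headers come from Feature Extraction 11.0.1.1, background-subtracted and not normalized between arrays. From these, log2 intensities of the 6 arrays were brought to a common distribution (quantile normalization, which the methods name) in R 4.3.3, with control probes and outlier spots left out. Spots of a probe were averaged. Each pair of groups was fitted with limma 3.58.1 (lmFit and eBayes, 4 arrays, no block) over every probe that either group held well above background on each of its arrays. Benjamini-Hochberg adjustment covered all of these. A call needed both an adjusted p under 0.05 and a difference of over 2-fold.

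A replicate is a separate mouse. IPC AAR and IPC RM of a number come from the same animal, and their deviations from the group means correlated at -0.09 over the 46232 probes tested. Arrays give no read depth, so that 2 arrays per group limit the precision. A deposited value table of 6 columns was not used, since its column names match no sample. Edge probes were found by setting the published group means against those of each probe, and all 20 listed transcripts matched a probe within 0.12%, the next nearest probe being at least 3.07% away. The members and lists were chosen with earlier results of these data known.

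Probes named in the text were the 10 (IPC AAR against IPC RM) or 5 (other comparisons) largest called folds in each direction above background on all 4 arrays, the 5 brightest, the 3 with the largest sham spread, the 3 brightest called ones with a dim group in each direction, runs of called numbers, the edge probes, and the 5 with the largest smaller fold among those called against both other groups. Probes 050522, 050656, 050697, 050765, 050851 and 050852 were added as neighbours of these. The alternatives were 75th percentile scaling, quantile normalization over 4 arrays, normexp with offset 50, other filters on dim probes, another detection mark, all spots of a probe, the methods' t-test, a single fit of 6 arrays, an intensity trend, outlier spots kept, the mouse as a block and each array left out. The 481 block probes have 481 spots, so requiring all spots of a probe could not change the block count. The fit was also run on simulated data with planted differences and equal, independent noise in both groups. Those data hold no slide effect and no wider spread of the sham arrays, so the run cannot speak to these.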

Additional observations from a re-analysis of the deposited data

How the results depend on the processing

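With the mouse as a replicate block, 57 block probes were called between IPC AAR and IPC RM, 56 of them shared with the 58 called without it, and the split was 30 higher and 27 lower. Leaving out each array in turn gave 28 to 75 called between IPC AAR and IPC RM (higher 14 to 43, lower 14 to 32), 2 to 64 between IPC AAR and sham AAR (higher 1 to 44, lower 1 to 20) and 0 to 52 between IPC RM and sham AAR (higher 0 to 31, lower 0 to 21), with medians of the log2 difference of 0.26 to 0.31, 0.21 to 0.43 and -0.06 to 0.09. Such a fit leaves a group with 1 array, whose spread is taken to be that of the other group. Between IPC AAR and IPC RM, 75th percentile scaling gave 47 higher (12.6%, over all probes 13.2%) and a median of 0.42 (over all probes 0.33). Normexp gave 22 called (12 higher, 10 lower), or 5.9%, where 10.9% of all probes were called. Its median was 0.15, and 0.10 over all probes. The stricter filter gave 14 lower (4.52%, over all probes 10.1%) and a median of 0.34 (over all probes 0.28). Testing all probes gave a median of 0.28 in the block and 0.15 over the array. The rule of over 2-fold in both mice, chosen after seeing the data, gave 37 called, 13 lower and a median of 0.34. Against sham AAR, normexp gave 12 called (7 higher, 5 lower), or 3.75%, where 6.08% of all probes were called. The median was then 0.16, and 0.12 over all probes. The stricter filter gave 17 called (6.25%, over all probes 9.01%), 5 of them lower (1.84%, over all probes 6.07%). A single fit of all 6 arrays gave 13 lower (4.06%, over all probes 8.47%). Testing all probes and the methods' t-test each gave 0 called against sham AAR (0 higher, 0 lower), with 124 and 76 at an unadjusted p below 0.05. Over the whole array these called 0 and 2 probes. Between IPC RM and sham AAR, a single fit of all 6 arrays called 4 (1 higher, 3 lower). The stricter filter tests only probes above background on all 4 arrays, as were 14 of the 28 lower calls between IPC AAR and IPC RM. The cause of the other changes was not tested. The mark for a positive and significant signal counted 367 block probes on all 6 arrays, against 272 well above background. No direction reversed among the 30 differences between IPC AAR and IPC RM and the 15 between IPC AAR and sham AAR that were recomputed, and other named probes were not recomputed. Of the 30 probes whose call between IPC AAR and IPC RM was followed, 13 kept it under every alternative run, and of the 15 against sham AAR 0 did.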
